A study of Mus musculus with 96 samples.

Results

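The region examined here was a single HindIII fragment in the distal part of mouse chromosome 4, viewpoint 6 of 12 (labelled 152.1 Mb), and the comparison was between the intact homologue of a deletion carrier and the same homologue in a control. Paired-end 4C sequencing (PE-4Cseq) captures, by inverse PCR after formaldehyde cross-linking, restriction digestion and ligation, the fragments that lay close to 1 chosen fragment in the nucleus. Of the 96 samples of the series, 4 were chosen by their labels: the C57BL/6J allele in MEF lines 129S5E71 and 129S5E98 (E71 and E98 below), called +DBl6, and the C57BL/6J allele in lines 129S5E117 and 129S5E118 (E117 and E118), called +Bl6. Lines E71 and E98 were Df/+DBl6, carrying an engineered 4.3 Mb deletion on the chromosome 4 of 129S5/SvEvBrd origin and an intact chromosome 4 from a C57BL/6J mother. Lines E117 and E118 were +129/+Bl6, with no deletion on either homologue, and their 129S5 allele, called +129, served as background. All 4 lines were mouse embryonic fibroblasts from embryos of chimera males crossed to C57BL/6J females, taken at day 13.5 and fixed at confluence at passage 4, so each line stands for 1 embryo and all share the F1 background. The comparison asked whether the contacts of an unaltered chromosome changed when the same region was deleted from its partner.

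Along a chromatin fibre the chance of contact falls with genomic distance, roughly as a power of it, and the exponent of that fall is used as a measure of compaction: an exponent nearer to 0 is a shallower decay, with more contact at a distance. Domains of preferred contact and boundaries between them make the fall uneven and can make it differ between the side toward the centromere and the side toward the telomere. At larger distances contacts are mostly with chromatin of a similar kind, gene-rich with gene-rich and gene-poor with gene-poor.

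The viewpoint fragment spans chr4:152142160-152145304 (mm9, NCBI37), is 3145 bp long and is intergenic. It lies 205 kb telomeric of the end of Nphp4, which encodes a protein of the ciliary transition zone, and 602 kb centromeric of Ajap1, which encodes a membrane protein of adherens junctions. Between these genes 810 kb hold no protein-coding gene, and after Ajap1 the next one, A430005L14Rik, is 474 kb further on. All 9 protein-coding genes within 0.5 Mb are on the centromeric side. The chromosome ends 3.48 Mb beyond the viewpoint. The sequences below, read from the mm9 chromosome, are shown because they define what was captured and how the homologues were told apart; capitals mark the HindIII site, or in the third line the polymorphic base at position 152144828, where the C57BL/6J allele has the reference base.

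PE1 primer part (chr4:152144854-152144874, minus strand): actcacaacactgggcggtct
PE2 primer part (chr4:152145278-152145304, plus strand): gtgcttggcagtactaaatagAAGCTT
From the last DpnII site over the polymorphic base (chr4:152144823-152144882, plus strand): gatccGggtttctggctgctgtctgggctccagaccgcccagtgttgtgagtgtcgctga
HindIII end of the viewpoint fragment (chr4:152145245-152145304, plus strand): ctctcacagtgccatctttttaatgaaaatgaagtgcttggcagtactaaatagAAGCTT

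A captured fragment is seen through the 30 bases next to one of its own HindIII sites, ligated to the last of these ends. The median HindIII fragment of the chromosome is 2133 bp, and 48320 fragments could be captured.

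The 129S5 share of reads at the viewpoint checks the labels. It was 0.0442% in line E71 (95% Wilson interval 0.0415 to 0.0470) and 0.334% in line E98 (0.327 to 0.342), whereas the control lines gave 52.7% (E117) and 50.5% (E118), so the deletion lines gave almost no reads from a 129S5 copy. Intervals here cover counting error only, since reads amplified by PCR without molecular identifiers are not independent molecules. The few reads of the 129S5 files of the deletion lines lay mostly on fragments also captured from other libraries: of the fragments beyond 1 Mb, 135 of 135 in line E71 were in its own +DBl6 library, and 808 of 906 in line E98 were in the +129 library of line E118.

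The +DBl6 files of lines E71 and E98 were not independent of each other. They held 2256679 and 2467582 reads, and beyond 1 Mb they shared 2907 captured fragments, 84.9% of the 3423 in E71 and 73.4% of the 3960 in E98, with a correlation of log reads of 0.969 over the shared fragments. The +Bl6 libraries of E117 and E118 shared 699 fragments with a correlation of 0.242. The E71 and E98 files were therefore summed and counted as 1 sample of 4724261 reads, against 2 samples of +Bl6 with 64058 (E117) and 1794858 (E118). With 1 sample against 2 an exact two-sided permutation test cannot go below p = 0.667, so the differences below are descriptions set beside the spread of the +Bl6 lines.

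Depth was uneven. Outside a zone of 20 kb around the viewpoint, which holds the viewpoint fragment itself (53.0%, 27.4% and 51.4% of all reads), the libraries held 1800937 reads (+DBl6), 39077 (+Bl6 E117) and 690226 (+Bl6 E118), or 38.1%, 61.0% and 38.5% of their totals. They covered 4929, 1699 and 6042 fragments. The E117 library is thus the shallowest by far, and 3 reads, the limit that a count of 0 allows, correspond there to 76.8 rpm (reads scaled to 1000000 reads outside the zone), against 1.67 in +DBl6 and 4.35 in E118. Purification differed too, with a High Pure kit for E71 and E117 and AMPure beads for E98 and E118, so each group held 1 line of each kind. Of the 1053 fragments beyond 1 Mb seen in E98 and not in E71, with a median of 1 read, 60.8% were also in the E118 +Bl6 library, where their median was 102.5 reads; of the 516 seen in E71 and not in E98, 22.9% were. These fragments held 0.200% and 0.110% of the reads beyond 1 Mb. Of the 2907 fragments seen in both +DBl6 files, 48.0% were in the E118 +Bl6 library, with a median of 29 reads there.

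The decay of the intact homologue was shallow near the viewpoint. At full depth and over both sides, its local exponent lay further from 0 than that of both control lines, by an amount that depended on the fragments used. The local exponent, the slope of a smoothing spline of log reads per base on log distance at 100 kb, was -0.793 in +DBl6, -0.524 in +Bl6 E117 and -0.761 in +Bl6 E118. The difference between +DBl6 and the mean of +Bl6 (-0.643 ± 0.168, SD, n = 2) was -0.15, smaller than the SD. With every fragment of at least 1 read it was -0.304, beyond the SD, with -1.09 in +DBl6, -0.628 in E117 and -0.948 in E118. In the +129 libraries the exponents were -0.561 (E117) and -0.781 (E118), so the shallow E117 value was found on both homologues of that line.

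The 2 control lines differed from each other by more than either differed between its homologues. Thinning every library to the 39077 reads of E117 gave -0.786 in +DBl6 and -0.819 in E118, so +DBl6 then lay between the control lines (-0.524 in E117). With lines E71 and E98 taken alone the exponents were -0.827 and -0.868, and against the control line purified in the same way the differences were -0.302 (E71 minus E117) and -0.106 (E98 minus E118); since the +DBl6 files shared fragments, these are not independent differences, here or below.

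With the +DBl6 files summed, the sides differed in sign. On the centromeric side alone the exponent was steepest in +DBl6, at -0.794 against -0.397 in E117 and -0.711 in E118, a difference of -0.239. On the telomeric side it was shallowest, with -0.570 in +DBl6, -0.691 in E117 and -0.585 in E118. Taken alone, however, E71 (-0.709) and E98 (-0.699) were steeper there than both control lines. The telomeric sign thus rested on the sum. On the centromeric side E71 (-0.829) and E98 (-0.918) alone were also steeper than both.

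The spline uses only fragments with at least 5 reads. A straight line through log-spaced distance bins, which keeps empty fragments but leaves out bins without reads, gave almost equal slopes in the 3 libraries. Only whole bins were fitted, so each line ended short of the upper limit named. From 20 kb to 3.4 Mb they were -1.03 in +DBl6, -1.02 in +Bl6 E117 and -1.04 in +Bl6 E118, a difference of -0.004 against an SD of 0.013. Over the first 1 Mb the slopes lay between -0.823 and -0.802.

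Taken by side, the slopes agreed less. On the centromeric side they were -0.616 in +DBl6, -1.15 in E117 and -0.797 in E118, with -0.840 and -0.738 in +129, so by this measure, which spans 20 kb to 3.4 Mb and keeps empty fragments, the intact homologue was the shallowest there, opposite to the exponent at 100 kb. On the telomeric side they were -0.877, -0.967 and -0.852, with -0.874 and -0.902 in +129, and +DBl6 lay between the control lines.

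**Figure D1:**
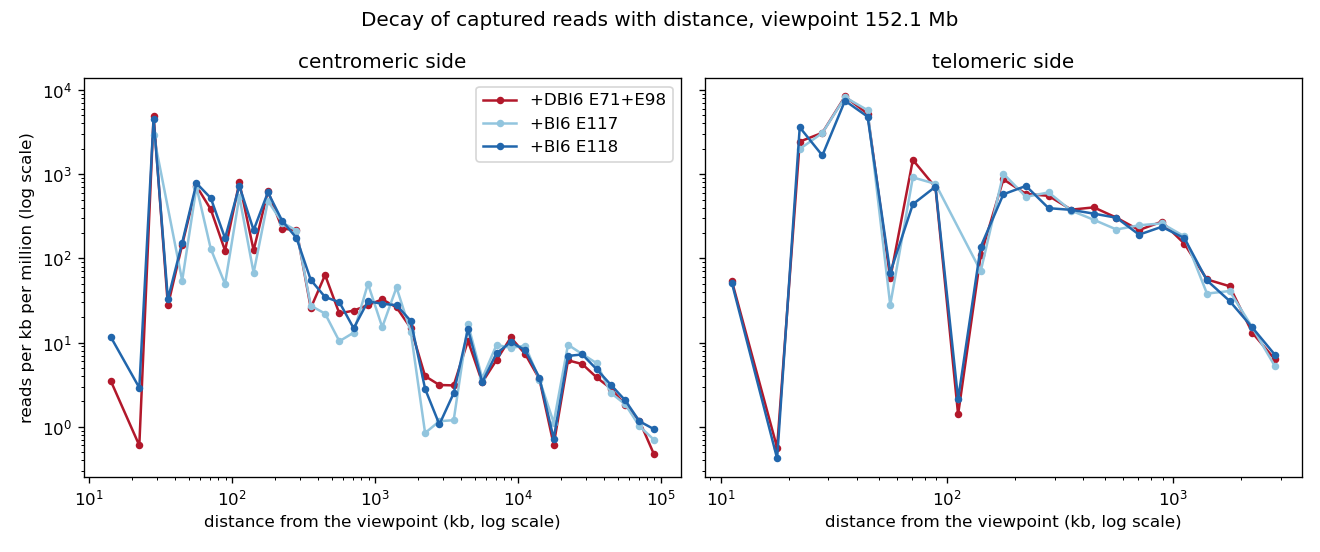
Captured reads in rpm per kb against distance from the viewpoint in kb, both on log scales, with the centromeric side left and the telomeric side right; each point is a distance bin of 1 library and fragments without reads are included. Bins without reads are not drawn. The 3 libraries lie closer together on the telomeric side (slopes of -0.877 in +DBl6, -0.967 in E117 and -0.852 in E118) than on the centromeric side (-0.616, -1.15 and -0.797). Between 300 and 500 kb the telomeric side is higher in each (7.62% of the reads in +DBl6 against 1.20% on the centromeric side).

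Among the 12 viewpoints, shallowness near the viewpoint was not particular to this one. The line E118 exponent of -0.761 was nearer to 0 than the E118 value at each of the 10 other viewpoints where E118 stood alone, which ran from -0.794 at viewpoint 8 to -1.27 at viewpoint 11; at viewpoint 9 the summed control gave -0.877. In line E117, however, viewpoints 7 (-0.468), 8 (-0.473) and 10 (-0.449, a library with few reads) were shallower than viewpoint 6 (-0.524). In +DBl6, viewpoint 8 (-0.762) and line E71 at viewpoints 1 (-0.718), 5 (-0.737) and 9 (-0.755) were also shallower than viewpoint 6 (-0.793). By the straight line to 1 Mb, all libraries of viewpoints 4, 8 and 9 (from -0.725 to -0.227, -0.714 to -0.619 and -0.627 to -0.545) were shallower than those of viewpoint 6, and all those of viewpoint 5, its centromeric neighbour at 0.53 Mb, were steeper (-1.64 to -1.46).

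The most uneven feature of the profile was the difference between its sides, and it was present on every homologue examined. Between 20 kb and 3.4 Mb the telomeric side held 3.29 times the reads of the centromeric side in +DBl6, 3.96 times in +Bl6 E117 and 2.91 times in +Bl6 E118. As log2 ratios these were 1.72, 1.99 and 1.54, so the intact homologue lay between the 2 control lines, and its difference from their mean (1.76 ± 0.32, SD, n = 2) was -0.046. The +129 libraries gave 1.74 (E117) and 1.48 (E118).

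The asymmetry of viewpoint 6 lay outside the range of the other viewpoints. Within 1 Mb its log2 ratio was 1.72 in +DBl6, 2.01 in E117 and 1.49 in E118, whereas the +DBl6 and +Bl6 libraries of the 9 other viewpoints with 1 Mb on both sides lay between -1.32 (viewpoint 1) and 0.829 (viewpoint 9). The adjacent viewpoints 5 (-0.176 to -0.033), 7 (-0.255 to 0.384) and 8 (-0.077 to 0.123) were close to even. Counting captured fragments in place of reads lowered the ratio to 0.534, 0.973 and 0.484, and the highest of the other viewpoints by that count was 0.408 (viewpoint 7, E117). That count is not corrected for the fragments available, which were more numerous on the telomeric side of viewpoint 6 in most bands. The telomeric side had 40 against 20 from 200 to 300 kb, 53 against 39 from 300 to 500 kb and 92 against 73 from 700 to 1000 kb. From 100 to 200 kb it had fewer, 20 against 24. No test of the difference between viewpoints was made, since each shares its cell lines with the others.

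**Figure D2:**
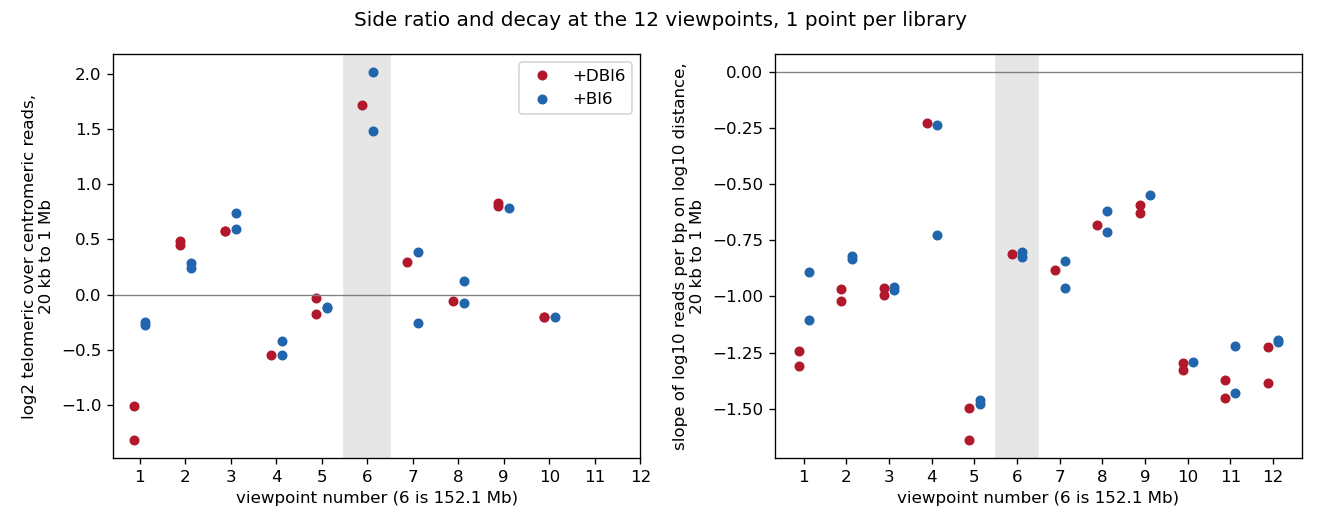
Left, log2 of telomeric over centromeric reads from 20 kb to 1 Mb; right, slope of log10 reads per bp on log10 distance over the whole distance bins within that range, at each of the 12 viewpoints, 1 point per +DBl6 (red) or +Bl6 (blue) library, with viewpoint 6 shaded. The 3 points of viewpoint 6 sit between 1.49 and 2.01 on the left, above all others, while its slopes of -0.823 to -0.802 lie within the range of the other viewpoints; viewpoints 11 and 12 are too near the chromosome end for a ratio, and the +Bl6 E117 library of viewpoint 10 (391 reads outside the zone) is not drawn.

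The asymmetry was not uniform with distance. From 20 to 50 kb the telomeric side held 3.33 times the reads of the centromeric side in +DBl6 (5.80 in E117 and 3.23 in E118), and from 100 to 200 kb the sides were about level (0.923, 1.44 and 0.647). The gap then widened, to 6.38, 7.92 and 6.35 from 300 to 500 kb and to 14.6, 15.2 and 8.93 from 500 to 700 kb, and narrowed to 3.33, 3.19 and 3.20 from 1 to 2 Mb. From 2 to 3.4 Mb it was wide again in the controls (12.7 in E117 and 5.89 in E118, with 15.8 and 5.81 in +129) but not in +DBl6 (2.86), which lay below all of them; the centromeric side held only 0.449%, 0.120% and 0.272% of the reads there. From 500 to 700 kb the centromeric side held 0.348%, 0.269% and 0.602% of the reads outside the zone, and the telomeric side 5.09%, 4.09% and 5.38%. All 3 libraries thus had their lowest centromeric share of the bands within 1 Mb at this distance.

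Set against the gene map, reads were concentrated between the start of Nphp4 and the next gene after Ajap1. That 1.48 Mb stretch held 60.5% of the reads outside the zone in +DBl6, 55.9% in E117 and 55.2% in E118. Of the reads between 20 kb and 2 Mb it held 87.0%, 87.0% and 86.6%, equal within 1 percentage point on the intact and control homologues, and 85.2% and 86.0% in +129.

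Moving out from the viewpoint, density is given in rpm per kb. On the centromeric side the gene-free stretch up to Nphp4 held 530 in +DBl6, 356 in E117 and 537 in E118. Nphp4 itself held 181, 226 and 208. Chd5, a chromatin remodeller, and Kcnab2, a potassium channel beta subunit, held 48.7, 50.0 and 57.7 together, and the block from Acot7 to Rpl22 beyond them held 32.7, 11.0 and 31.0. The intact homologue lay below both control lines over Nphp4 and, by less than the gap between those lines, over Chd5 and Kcnab2. In +129 the Nphp4 values were 302 and 227.

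On the telomeric side the gene-free stretch up to Ajap1 held 617 in +DBl6, 573 in E117 and 525 in E118. Ajap1 held 176, 204 and 241, and the gene-free stretch after it 234, 246 and 213. Density then fell to 89.6, 101 and 122 at A430005L14Rik and the next 0.1 Mb, and to 52.6, 37.6 and 39.3 over the following 0.5 Mb. The stretch between the zone and Ajap1 was thus higher in +DBl6 than in either +Bl6 line, with 36.02% of reads against 33.44% and 30.66%, and Ajap1 was lower; the +129 libraries, with 34.04% and 32.40% in that stretch, lay between the +DBl6 value and the lower +Bl6 value.

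**Figure D3:**
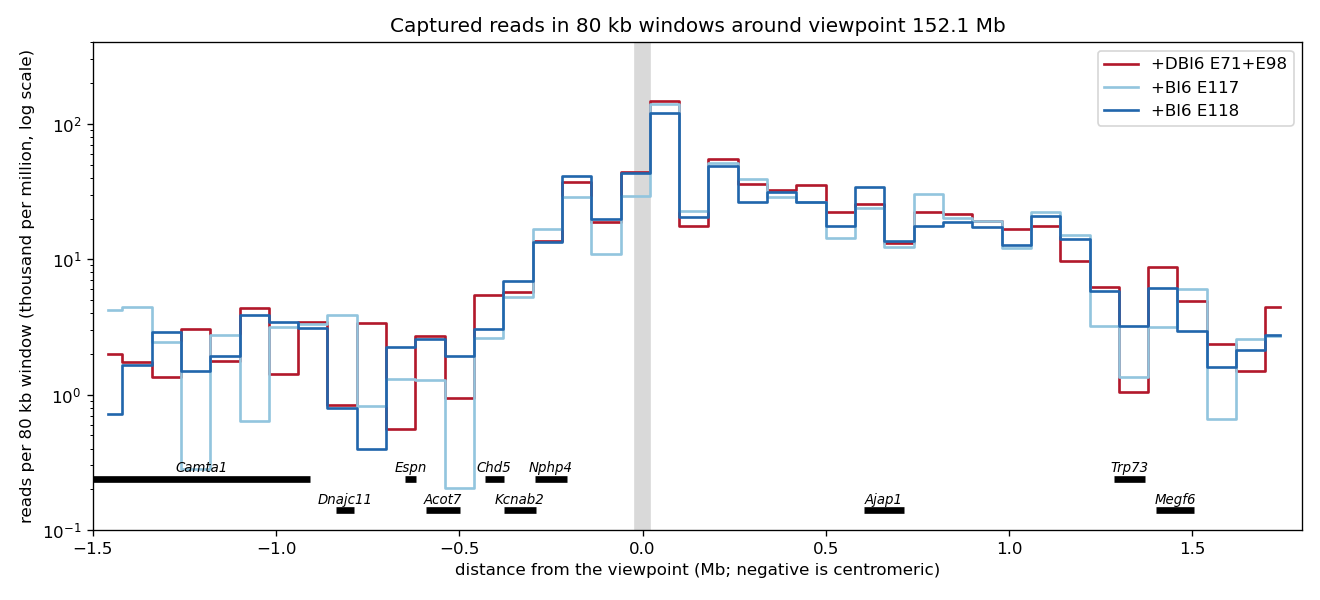
Reads per 80 kb window (kilo-rpm, relative to the reads outside the zone, log scale) against distance from the viewpoint in Mb (negative is centromeric), for the 3 libraries; the grey band is the 20 kb zone and black bars mark named genes. From 0.06 to 1.10 Mb on the telomeric side every window held 12155 rpm or more in every library, while on the centromeric side no window from -0.34 Mb outward in the range shown held more than 6908.

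Of the 9 genes within 0.5 Mb, Nphp4 (179 in +DBl6, 223 in E117 and 205 in E118) and Kcnab2 (64.8, 59.9 and 74.2) had the most captured fragments in +DBl6, 17 each. Rnf207, a RING finger gene with 4 fragments, stood out at 199 in +DBl6 against 4.27 and 54.8, and 26.8 and 52.4 in +129. In E117 its value rested on 2 reads. Among the rest, Icmt, which methylates prenylated proteins, had 6 fragments and held 74.9, 2.59 and 70.7, and Chd5 had 3 and held 20.8, 33.3 and 20.7. Acot7, an acyl-CoA thioesterase, held 16.8, 12.6 and 30.2; Hes3, Gpr153 and Rpl22 had 1 or 2 fragments each, with values between 0 and 46.1.

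Beyond these, Camta1, a large calmodulin-binding transcription activator gene 906 kb to the centromeric side with 225 fragments, held 30.9, 35.2 and 33.3 and so differed little between the homologues. Prdm16, a regulator of brown fat identity on the telomeric side, held 43.8, 42.3 and 26.6, and Trp73, a p53 family gene, 15.4, 16.2 and 44.1. Megf6, which encodes a protein with EGF-like domains, held 80.5, 22.4 and 62.3. For Trp73 and Prdm16 the control lines differed from each other by more than +DBl6 differed from E117. The circadian gene Per3 (17.4, 0 and 9.33), Vamp3 of vesicle fusion (10.7, 0 and 1.36), the mitochondrial Dnajc11 (16.5, 79.8 and 10.7) and the actin bundler Espn (7.85, 15.97 and 38.8) varied widely between libraries, and no fragment was centred in the Notch target gene Hes5.

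The neighbouring viewpoints saw the same contacts from the other end. Within 40 kb of viewpoint 7, at 0.34 Mb, viewpoint 6 captured 25031 rpm in +DBl6, 16762 in E117 and 22671 in E118, and viewpoint 7 captured 17461, 16343 and 20453 within 40 kb of viewpoint 6. For viewpoint 8, at 0.78 Mb, the values were 22232, 30171 and 17697 outward and 10287, 17209 and 20010 in return. For viewpoint 8, +DBl6 lay between the control lines outward and below both in return; for viewpoint 7 it lay above both outward and between them in return. Toward viewpoint 5, which is nearer than viewpoint 8 but centromeric, viewpoint 6 captured 1667, 358 and 2651 rpm, and from the other end viewpoint 5 captured 3264 and 1733 in the +DBl6 lines and 3389 and 2742 in the +Bl6 lines.

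Among windows of 80 kb between 0.5 and 5 Mb, the 5 with the highest lowest value over the 3 libraries all lay on the telomeric side, between 0.62 and 1.10 Mb. The first was the Ajap1 window chr4:152720001-152800000, with 25618 rpm in +DBl6, 24029 in E117 and 34012 in E118. The other 4 held no protein-coding gene.

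Distal contacts made up a smaller part of the reads of the intact homologue. Beyond 5 Mb, all of it centromeric, lay 27.4% of the reads outside the zone in +DBl6 (Wilson interval 27.3 to 27.5), 32.1% in E117 (31.7 to 32.6) and 32.7% in E118 (32.6 to 32.8). The difference from the +Bl6 mean (32.4% ± 0.406, SD, n = 2) was -5.001 percentage points, and with each +DBl6 file set against the control line of the same purification it was -4.76 (E71 minus E117) and -5.24 (E98 minus E118). The +129 libraries, at 29.6% and 29.9%, lay between. The sign depended on what was counted: as a share of captured fragments, 74.4% lay beyond 5 Mb in +DBl6 against 62.8% in E117 and 78.5% in E118, and the difference became 3.75.

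The lower distal share was not particular to this viewpoint. The +DBl6 libraries lay below the +Bl6 libraries at 8 of the 12 viewpoints and overlapped them at 4. Leaving out the +Bl6 E117 library of viewpoint 10, which held 391 reads outside the zone, the counts were 9 and 3. No difference between viewpoints was tested.

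The distal reads were also split by the gene content of their windows. Windows with no protein-coding gene made up 713 of the 1801 windows beyond 5 Mb (39.6%), with a median GC content of 38.8% against 42.6% for the rest. They held 34.6% of the distal reads in +DBl6 (Wilson interval 34.5 to 34.7), 27.3% in E117 (26.5 to 28.1) and 29.6% in E118 (29.4 to 29.8), below their share of windows in all 3. The difference from the +Bl6 mean (28.4% ± 1.64, SD, n = 2) was 6.18 percentage points, 7.47 and 4.91 by purification, and 4.41 when captured fragments were counted. The +129 libraries held 28.6% and 31.1%. The mean level in windows without a gene was 133 rpm in +DBl6, 123 in E117 and 136 in E118. In windows with 1 or more genes it was 165, 215 and 212. The higher gene-less share thus went with a lower level in windows with genes, not a higher one in windows without. It is therefore not separate from the lower distal share.

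Of the 12 viewpoints, +DBl6 lay above +Bl6 in this share at 3, which were viewpoints 6, 7 and 8, below at 3 and overlapping at 6 (below at 4 and overlapping at 5 without that E117 library of viewpoint 10). Viewpoints 7 (30.6% to 39.1%) and 8 (30.5% to 38.7%) resembled viewpoint 6 in level, while viewpoint 5 held 15.6% to 18.2%. At viewpoints 6, 7 and 8 alike +DBl6 was 1 summed library, so the higher share rested on 1 sample at each.

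**Figure D4:**
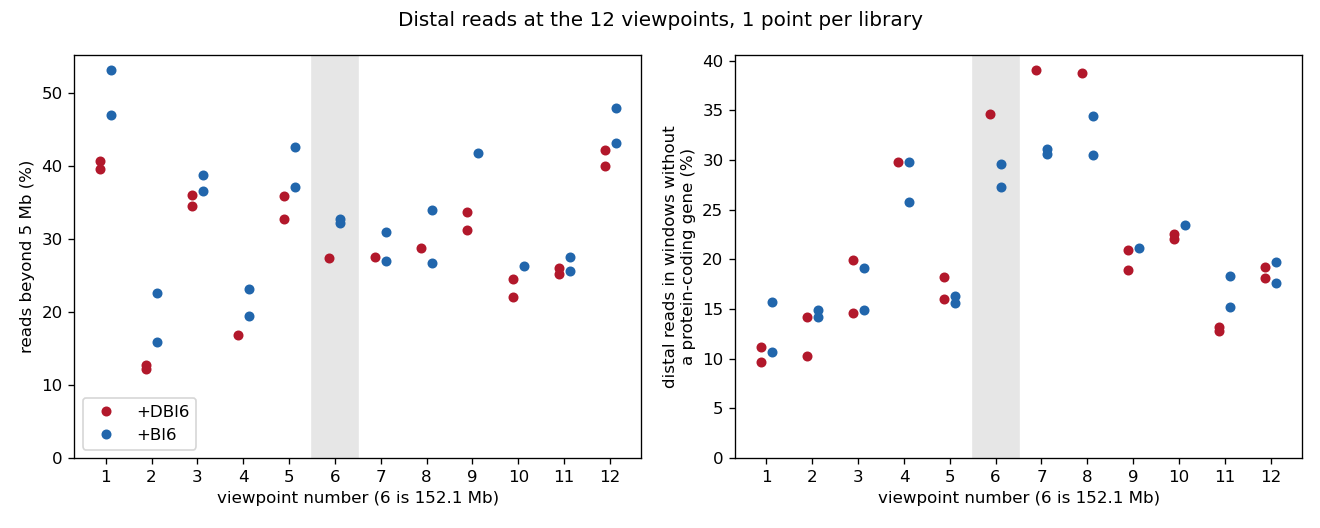
Left, percent of reads outside the zone that lay beyond 5 Mb; right, percent of those distal reads in 80 kb windows without a protein-coding gene, at each of the 12 viewpoints, 1 point per +DBl6 (red) or +Bl6 (blue) library, with viewpoint 6 shaded. At viewpoint 6 the +DBl6 point is below the +Bl6 points on the left (27.4% against 32.1% and 32.7%) and above them on the right (34.6% against 27.3% and 29.6%); the +Bl6 E117 library of viewpoint 10 is not drawn.

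The distal windows captured best in all 3 libraries had offsets between -26.98 and -9.70 Mb (negative is centromeric). They were chosen as the 6 with the highest lowest rpm, so their levels are a description. Their GC content (45.0% to 51.0%, median 47.5%) was above the median of all distal windows (40.9%), and captured fragments beyond 5 Mb were also richer in GC than those not captured (43.4% against 40.7% in +DBl6, 44.3% against 40.8% in E117 and 43.5% against 40.7% in E118). They fell at 4 loci. For 1 window of each locus, the fragment captured in all 3 libraries with the highest lowest rpm is shown by both of its ends, since a captured fragment is recognised by the tag next to its HindIII site (capitals), and each tag matched chromosome 4 once.

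Gm9867 window, left end (chr4:139858937-139858972): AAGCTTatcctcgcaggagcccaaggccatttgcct
Gm9867 window, right end (chr4:139869297-139869332): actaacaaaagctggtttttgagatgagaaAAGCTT
First gene-free window, left end (chr4:142431707-142431742): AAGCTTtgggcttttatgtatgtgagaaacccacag
First gene-free window, right end (chr4:142436153-142436188): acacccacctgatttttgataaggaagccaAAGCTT
Grik3 window, left end (chr4:125153634-125153669): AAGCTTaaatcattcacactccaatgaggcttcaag
Grik3 window, right end (chr4:125158414-125158449): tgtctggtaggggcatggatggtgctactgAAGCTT
Csmd2 window, left end (chr4:127713169-127713204): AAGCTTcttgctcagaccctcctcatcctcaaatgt
Csmd2 window, right end (chr4:127713421-127713456): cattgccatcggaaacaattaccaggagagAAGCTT

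The Gm9867 window (chr4:139840001-139920000) held 2294 rpm in +DBl6, 2661 in E117 and 3051 in E118. A pair of adjoining windows without a protein-coding gene followed, of which chr4:142400001-142480000 held 4665, 2636 and 2241 and chr4:142320001-142400000 held 2061, 2764 and 2588. The first of these was the highest distal window of all in +DBl6 and ranked 15 and 6 in the control lines. In +129 it held 2220 (E117) and 614 (E118), so its level varied between the homologues of 1 line as well.

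The Grik3 window (chr4:125120001-125200000), within a kainate receptor subunit gene, held 2896, 3045 and 1804 rpm. The adjoining windows of Csmd2, which encodes a large membrane protein with CUB and sushi domains, held 2686, 1638 and 1659 (chr4:127680001-127760000) and 1446, 2406 and 3054 (chr4:127600001-127680000, also overlapped by CK137956). The intact homologue was thus above both control lines in 2 of the 6 windows, below both in 3 and between them in 1.

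Within the windows the leading fragments differed. In each of the 6 windows the fragment with the most reads was a different one in each of the 3 libraries. In the Gm9867 window the fragment shown above held 238 rpm in +DBl6, 205 in E117 and 94.2 in E118, and a single other fragment held 52.3% of the reads of the window in +DBl6. Over all distal fragments with at least 5 reads, +DBl6 and E118 shared 547, which is 27.0% of those of +DBl6 and 19.6% of those of E118, and at 100 reads 108, or 12.6% and 12.7%. Of all 46214 distal fragments, those with at least 5 reads were 4.39% in +DBl6 and 6.05% in E118, and those with at least 100 reads 1.85% and 1.84%. The 100 best captured distal fragments held 35.5% of the distal reads in +DBl6, 44.6% in E117 and 16.2% in E118.

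**Figure D5:**
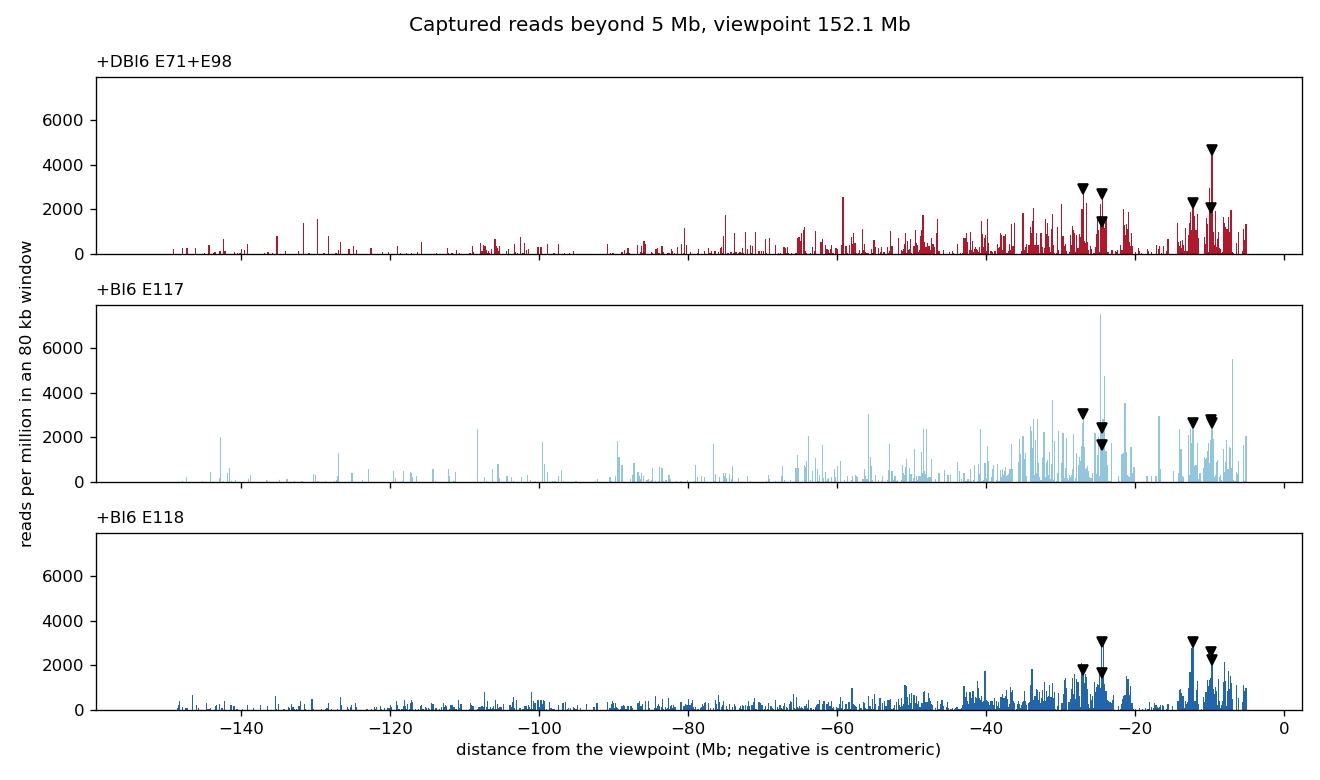
Reads (rpm) in 80 kb windows beyond 5 Mb against distance from the viewpoint in Mb (negative is centromeric), 1 panel per library on a common scale from 0; triangles mark the 6 windows with the highest lowest value. All 3 libraries hold most of their distal reads within about 50 Mb, and the marked windows reach 1446 to 4665 rpm.

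Over the 1801 distal windows the rank correlation (Spearman's rho, across windows that share their GC content and cut sites, as a description) was 0.529 between +DBl6 and E118, 0.381 between +DBl6 and E117, and 0.427 between E117 and E118. The 2 alleles of line E118 gave 0.522. The value for the intact homologue against the deeper control line was thus close to that for the alleles of the deeper line. With the +DBl6 and +Bl6 libraries of viewpoints 7, 8 and 9 the values were 0.345 to 0.459, 0.375 to 0.459 and 0.382 to 0.442, with viewpoint 5, 0.264 to 0.368, and with viewpoint 2, 0.044 to 0.125.

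Across windows of 80 kb, +DBl6 was compared with +Bl6 by edgeR's quasi-likelihood test, with +129 in the fit because the summed +DBl6 library has no spread of its own, and adjusted over all windows of the 12 viewpoints. The control libraries in the fit are both alleles of lines E117 and E118. No term for line was used, so the alleles of a line were treated as independent samples, which they are not. Of the 628 windows tested at viewpoint 6, 1 passed (0.159%), against 17 of 9953 (0.171%) at the 12 viewpoints together, and 37 (5.89%) had an unadjusted p under 0.05. At the other viewpoints the unadjusted counts ran from 5 of 425 (viewpoint 10) to 123 of 812 (viewpoint 4), so viewpoint 6 lay within their range. The window that passed, chr4:92880001-92960000, has an offset of -59.2 Mb and holds no protein-coding gene (edgeR adjusted p = 0.0127). It held 2561 rpm in +DBl6, 0 in E117, which allows up to 76.8, and 2.90 in E118, with 229 and 21.5 in +129. Only 3 of its 35 fragments were captured in +DBl6, and 69.1% of its reads lay on 1 of them; the window did not pass when either +Bl6 line was left out (0 windows passed), when scaled by total reads or when captured fragments were counted.

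The next smallest p values did not pass. They were those of chr4:152160001-152240000, the window just telomeric of the viewpoint, with 148675 rpm in +DBl6 against 140645 in E117 and 120374 in E118 (edgeR adjusted p = 0.34), and of chr4:111280001-111360000 within Agbl4, a tubulin deglutamylase gene, with 0 in +DBl6, which allows up to 1.67, against 2354 and 222 (edgeR adjusted p = 0.365). In +129 the window next to the viewpoint held 156511 (E117) and 137116 (E118), so +129 E117 lay above +DBl6 there. The Agbl4 window held 68.7 and 630 in +129. The test scaled by TMM and not by rpm, and gave the window next to the viewpoint a log2 fold change of 0.802. Over the tested windows the SD of the log2 difference between libraries was 2.37 for +DBl6 against E118, 2.80 for E117 against E118 and 1.75 for +129 against +Bl6 in E118. Taken over all tested windows, a difference in a single window thus had to be large to stand out from that between control libraries, and smaller ones may have been missed. These SDs pool windows near to and far from the viewpoint, and the detectable size was not measured by distance.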

How the data were processed

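The deposited files hold, for each sample, read counts per HindIII fragment of chromosome 4. Per the study's methods, the authors assigned alleles by a polymorphism in the first read, trimmed the second read to 30 bases and aligned it with Bowtie to mm9 with at most 3 mismatches, keeping unique hits; the Bowtie version is not given in the sources used here. A further 16 deposited tables list the authors' own differential regions (chromosome, start and end) and were not used. Reads on fragments could be moved by PCR amplification, fragment length and GC content, and were not corrected for these.

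Libraries of 1 group whose log reads at shared fragments beyond 1 Mb correlated above 0.9 were summed. Reads within 20 kb of the viewpoint were left out. Counts per window of 80 kb were tested with edgeR 4.0.16 (R 4.3.3; TMM, a minimum of 10 reads per window in 50% or more of the libraries, Benjamini-Hochberg threshold 0.05), with DESeq2 1.42.0 as an alternative, which used a local dispersion fit. Profiles were computed in Python 3.11.15 with numpy 2.4.6, pandas 2.3.3 and scipy 1.17.1, and matplotlib 3.10.9 drew the figures. The spline had 4 degrees of freedom. The scripts were tested on simulated data. Named windows were the 3 with the smallest p, and the 6 beyond 5 Mb and 5 between 0.5 and 5 Mb with the highest lowest rpm; named genes were those within 0.5 Mb and landmarks of the region. Members, lists and tests were chosen with earlier results of these data known. The lines are separate embryos, but nothing states that each library was prepared on its own culture, so the spread may be partly technical.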

Additional observations from a re-analysis of the deposited data

How the results depend on the processing

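The side ratio moved by less than the SD of the +Bl6 lines under every alternative tried, from -0.35 (captured fragments) to 0.177 (without +Bl6 line E117). The count of windows that passed, 1, depended on the settings. It was 0 with scaling by total reads, with at least 100 reads per window, for captured fragments and with all libraries as labelled. Without a filter on low counts it was 2 of 1731, against 59 of 21033 at the 12 viewpoints together. In windows of 200 kb it was 3 of 456, against 23 of 6268. With DESeq2 it was 28 of 628 (2 higher and 26 lower in +DBl6), against 320 of 9953. Treating the purification batch as a replicate block, with all libraries as labelled, gave 13 of 750 windows (3 higher and 10 lower), against 154 of 10158. This block pairs lines that share only a purification, and it counts the +DBl6 files as independent. Leaving out 1 line gave 0 to 2. With total reads instead of TMM, the scaling moved the median log2 fold change of the tested windows from 0.17 to -0.39, and the split at unadjusted p under 0.05 from 16 higher and 21 lower to 2 higher and 30 lower. The difference in exponent was 0.068 on the telomeric side alone, -0.239 on the centromeric side and -0.304 with at least 1 read per fragment. The positive telomeric value came with the summed +DBl6 library and not with either file alone. The difference in slope was -0.034 with a zone of 50 kb, 0.086 for captured fragments and 0.013 with reads capped at the 95th percentile. The difference in distal share was 3.75 for captured fragments, -4.30 for fragments with at least 5 reads and -2.78 with the cap, and that in the gene-less share 4.41 for captured fragments. Leaving out 1 line gave -0.268 to -0.031 for the exponent, -0.013 to 0.006 for the slope, -0.269 to 0.177 for the side ratio, -5.29 to -4.71 for the distal share and 5.03 to 7.34 for the gene-less share. Thinning to the reads of E117, chosen after seeing the data, changed no direction of a difference from the +Bl6 mean (1 seeded draw). The thinned exponent of +DBl6 (-0.786) lay between those of E117 (-0.524) and E118 (-0.819), however, and no longer beyond both. The causes were not tested. Depth was lowest in E117, where 3 reads make 76.8 rpm.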
